A study of Mus musculus with 3 samples.

Results

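Amino acid transporter genes were examined in mouse dendritic cells (DCs), which capture antigen and present it to T cells. The genes were those whose symbol in the array's probe annotation belongs to the solute carrier families Slc1, Slc3, Slc6, Slc7, Slc36, Slc38 or Slc43 and ends in a plain number. They came to 58 of 17886 genes with a probe set that names 1 gene. Where a gene had several probe sets, the one with the highest mean signal stood for it.

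The cells came from wild-type bone marrow kept in GM-CSF, a growth factor that drives DC formation, for 5 days. A flow cytometry sort then separated cells with and without surface PDL2, which binds the inhibitory receptor PD-1. The groups were PDL2-positive cells left untreated, PDL2-negative cells given lipopolysaccharide (LPS, a bacterial ligand of Toll-like receptor 4) at 100 ng/ml, and PDL2-negative cells without LPS. With a single array for each, none of the differences could be tested or checked against replicates, and precision is limited by this number. The strain and age of the mice and the duration of LPS treatment are not given in the sources used here.

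Cells take up amino acids for protein synthesis, for glutathione, and as substrates of enzymes that make nitric oxide or break down tryptophan. Slc7 light chains exchange amino acids across the membrane and, in the heteromeric transporters, reach the cell surface bound to a Slc3 heavy chain. Cationic transporters of the Slc7 family carry arginine, and in mouse macrophages Slc7a2 supplies arginine to the inducible nitric oxide synthase. Slc1 and Slc38 members use the sodium gradient and some Slc36 members the proton gradient. Some Slc36 and Slc38 members lie on lysosomes, where they take part in amino acid sensing by the kinase complex mTORC1. Not all members carry amino acids as their main substrate: the 18 Slc6 genes include carriers of serotonin, taurine, creatine, betaine and gamma-aminobutyric acid.

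The sort was visible in Pdcd1lg2, the gene of PDL2, whose log2 signal was 11.73 in PDL2-positive cells, 9.44 in LPS-treated PDL2-negative cells and 8.40 in untreated PDL2-negative cells. All 10 listed DC markers were above the floor on every array. So were all 11 macrophage markers on both PDL2-negative arrays and 10 of them on the PDL2-positive array. Passing the floor therefore does not tell DCs from macrophages. The floor, 5.58 on the log2 scale, is the median of all normalized values, and lower values were raised to it before differences were taken. Values are quantile-normalized log2 signals, and signals of different genes are not compared, because probe sets differ in brightness. A member was called higher or lower where it differed by at least 2-fold, which is 1 on the log2 scale. Where 1 of the arrays compared was at the floor, the fold is a lower bound and is given as at least N-fold.

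Among the 58 members, 37 exceeded the floor on 1 or more arrays, and 27 of them did so on all 3. Of the 37, 19 differed by 2-fold or more in at least 1 comparison and 18 in none. The other 21 were at or below the floor on every array, so nothing can be said of their differences. These were Slc3a1, Slc7a9, Slc7a10, Slc7a12, Slc7a13, Slc7a14, Slc7a15, Slc1a1, Slc1a3, Slc1a6, Slc38a4, Slc38a5, Slc43a1, Slc6a3, Slc6a5, Slc6a11, Slc6a14, Slc6a15, Slc6a16, Slc6a18 and Slc6a21. In 10 members the deposited value was identical on all 3 arrays. Of these 10, Slc6a17 alone was above the floor, so its small differences after normalization, from -0.12 to 0.15, come from the normalization. Slc7a5 (7.41) and Slc36a3 (6.43) had the same deposited value on both PDL2-negative arrays, so their differences after LPS come from it too. For Slc7a4 the deposited values were 7.70 with LPS and 7.74 without, opposite in sign to its normalized difference of 0.18.

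Promoter sequences are shown for the members that were higher after LPS or in PDL2-positive cells and have a promoter in the RefSeq table (build GRCm38.p6). The search covered 300 bases, from 250 before to 50 after each start site, and each sequence below runs from 250 bases before the start site through its first 10 bases. Capitals mark matches, on either strand, to TGATGNAA (the composite site of ATF4 and C/EBP factors, which in mammals serves the response to amino acid shortage), the NF-kB motif (GGG, any 5 bases, then CC) or TGACNNNGC (the antioxidant response element).
Slc7a11 (chr3:50443604-50443863, minus strand): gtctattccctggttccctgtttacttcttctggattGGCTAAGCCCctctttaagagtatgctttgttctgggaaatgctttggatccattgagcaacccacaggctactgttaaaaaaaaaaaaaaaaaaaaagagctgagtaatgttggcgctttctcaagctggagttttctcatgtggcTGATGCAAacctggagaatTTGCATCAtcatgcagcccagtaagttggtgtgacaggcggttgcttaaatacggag
Slc7a8 (chr14:54781877-54782136, minus strand): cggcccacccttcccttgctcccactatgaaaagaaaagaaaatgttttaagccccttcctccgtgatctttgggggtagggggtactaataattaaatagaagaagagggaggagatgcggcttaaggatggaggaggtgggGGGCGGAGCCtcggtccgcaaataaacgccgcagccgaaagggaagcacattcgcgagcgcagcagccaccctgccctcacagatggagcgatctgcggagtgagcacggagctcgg
Slc3a2 (chr19:8713888-8714147, minus strand): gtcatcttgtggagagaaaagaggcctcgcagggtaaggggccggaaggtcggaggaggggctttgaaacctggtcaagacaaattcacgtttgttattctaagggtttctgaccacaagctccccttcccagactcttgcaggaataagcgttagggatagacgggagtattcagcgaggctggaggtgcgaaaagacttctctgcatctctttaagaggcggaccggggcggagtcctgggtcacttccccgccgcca
Slc1a2 (chr2:102706188-102706447, plus strand): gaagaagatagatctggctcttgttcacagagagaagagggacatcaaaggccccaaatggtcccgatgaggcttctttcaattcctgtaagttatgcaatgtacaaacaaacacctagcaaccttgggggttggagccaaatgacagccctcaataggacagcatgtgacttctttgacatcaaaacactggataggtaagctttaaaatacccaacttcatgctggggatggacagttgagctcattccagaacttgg
Slc1a4 (chr11:20332704-20332963, minus strand): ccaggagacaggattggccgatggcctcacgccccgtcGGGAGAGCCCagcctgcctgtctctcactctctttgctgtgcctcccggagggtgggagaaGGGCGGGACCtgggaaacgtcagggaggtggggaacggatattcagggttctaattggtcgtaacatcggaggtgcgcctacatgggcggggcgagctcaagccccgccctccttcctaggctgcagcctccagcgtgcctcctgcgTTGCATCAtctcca
Slc38a2 (chr15:96699719-96699978, minus strand): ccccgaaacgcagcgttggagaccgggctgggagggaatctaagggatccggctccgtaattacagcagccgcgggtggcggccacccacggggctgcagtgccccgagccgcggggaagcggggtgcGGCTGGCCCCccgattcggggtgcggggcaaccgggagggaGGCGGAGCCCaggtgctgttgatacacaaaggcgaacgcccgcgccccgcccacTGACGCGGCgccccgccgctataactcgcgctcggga

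The Slc7a11 window held the ATF4 composite on both strands, at positions -66 to -59 as TGATGCAA and at -47 to -40 as TTGCATCA, counted from the start site as 0. The Slc1a4 window held it as TTGCATCA across the start site, and windows of Slc7a7 and Slc6a21 held it too, so that 4 of the 41 members with a window had it. Counted over windows, of which a gene can have several that overlap, it was in 5 of 62 member windows (8.06%), against 3.97% of all 32851 windows. The NF-kB letters were in 54.8% of member windows and 50.8% of all windows, and the antioxidant element in 17.7% and 12.4%. No match to any of the 3 motifs lay in the Slc3a2 and Slc1a2 windows. In Slc1a4 the NF-kB match GGGAGAGCCC fits on both strands. A match is a run of letters and was not tested as a binding site. Of the 19 members that differed, 15 had a window. Slc7a2 is named without one.

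LPS-treated PDL2-negative cells were set first against untreated PDL2-negative cells. The arginine transporter gene Slc7a2, the light chain genes Slc7a11 and Slc7a8, the heavy chain gene Slc3a2 and the glutamate transporter gene Slc1a2 were higher after LPS. Lower were 3 of 4 Slc36 genes, 2 of 7 sodium-coupled Slc38 genes, Slc43a2, Slc1a5 and Slc6a13. Of 36 members compared, 5 (13.9%) were higher by 2-fold or more, against 9.17% of all genes compared, and 8 (22.2%) were lower, against 13.8% of all genes. The median difference of the members was 0.09, against 0.02 over 11000 genes, and the median size of the difference regardless of sign was 0.75, against 0.41.

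Slc7a2, the cationic transporter named above, had a log2 signal of 13.17 in LPS-treated cells and 8.36 in untreated PDL2-negative cells, with 5.53 in PDL2-positive cells. It was 28.0-fold higher after LPS. All 4 of its probe sets pointed the same way, with log2 differences from 4.36 to 6.45, of which the lowest is a bound. Slc7a1, the broadly expressed cationic transporter, had 8.81 in LPS-treated and 8.11 in untreated PDL2-negative cells and 8.69 in PDL2-positive cells. Its difference after LPS, 0.70, stayed under 2-fold, although a second probe set gave 1.41. The PDL2-positive signal was thus the lowest of the 3 for Slc7a2. For Slc7a1 the deposited value was 8.72 in both PDL2-positive and LPS-treated cells, so the order of these 2 comes from the normalization. The second probe set of Slc7a1 had 8.42 in PDL2-positive, 8.82 in LPS-treated and 7.42 in untreated PDL2-negative cells. Slc7a4 differed by 0.18 after LPS, and Slc7a3, a cationic transporter known mainly from brain, by at least 0.17, with 5.74 in LPS-treated cells and a signal below the floor in untreated PDL2-negative cells.

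Slc7a11 encodes the light chain that imports cystine in exchange for glutamate and so supplies cysteine for glutathione. Its signal was 12.70 in LPS-treated cells, against 8.77 in untreated PDL2-negative cells, a 15.3-fold difference, and 9.05 in PDL2-positive cells. The second probe set gave a log2 difference of 3.33. With both probe sets the LPS array was the highest. The untreated arrays differed by 0.29 with the first probe set and by 0.92 with the second, which had 8.17 in PDL2-positive and 7.25 in untreated PDL2-negative cells. Slc3a2, the heavy chain that carries Slc7a11 and most other light chains to the surface, had 12.91 in LPS-treated cells, 11.88 in untreated PDL2-negative cells and 11.57 in PDL2-positive cells. Its log2 difference after LPS, 1.03, was just past the 2-fold line and rests on a single probe set.

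Slc7a8, a light chain that exchanges neutral amino acids, had 10.24 in LPS-treated cells and 7.75 in untreated PDL2-negative cells, which made it 5.62-fold higher after LPS. In PDL2-positive cells it lay below the floor, at 5.29. The other light chains above the floor did not differ by 2-fold after LPS. Slc7a5, the carrier of leucine and other large neutral amino acids, had 7.54 in LPS-treated and 7.32 in untreated PDL2-negative cells, with 6.79 in PDL2-positive cells. Slc7a7, which exchanges cationic for neutral amino acids, had 8.31 in LPS-treated and 8.84 in untreated PDL2-negative cells and 9.56 in PDL2-positive cells. The similar exchanger Slc7a6 differed by -0.28, and a second probe set of Slc7a6 gave -1.16.

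Of 4 Slc1 members compared, 1 was higher and 1 lower after LPS. Slc1a2, the main glutamate transporter of astrocytes, had 8.41 in LPS-treated cells but 4.69 in untreated PDL2-negative and 4.74 in PDL2-positive cells. It was therefore at least 7.10-fold higher after LPS, and it was above the floor on the LPS array only. A second probe set gave at least 2.21 on the log2 scale, while the other 2 of its 4 probe sets were below the floor on every array. With all probe sets averaged the Slc1a2 difference was 0.68, and a floor raised to the 75th percentile gave 0.60. Slc1a5, a sodium-dependent carrier of glutamine, had 6.66 in LPS-treated cells and 7.90 in untreated PDL2-negative cells, a 2.36-fold lower signal after LPS, with 7.56 in PDL2-positive cells. With the floor at the 75th percentile its difference was -0.09.

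Among the Slc36 genes, 3 of 4 were lower after LPS. Slc36a1, a proton-coupled carrier of small amino acids found on lysosomes, had 6.55 in LPS-treated and 9.28 in untreated PDL2-negative cells and was 6.66-fold lower. Slc36a2, a related carrier of glycine and proline, had 7.61 in LPS-treated and 9.79 in untreated PDL2-negative cells and was 4.56-fold lower. Slc36a4, which carries proline and tryptophan, had 8.88 in LPS-treated and 10.35 in untreated PDL2-negative cells and was 2.76-fold lower. All 3 were highest in untreated PDL2-negative cells, and each rests on a single probe set. Slc36a3, the fourth member, differed by 0.15.

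Slc43a2, a facilitative carrier of branched-chain and other large neutral amino acids, had the most negative difference of all members compared after LPS. Its signal was 7.62 in LPS-treated cells and 11.11 in untreated PDL2-negative cells, an 11.3-fold lower signal after LPS. All 3 probe sets had the same sign but not the same size, with log2 differences of -3.49, -1.86 and -0.74, of which -0.74 is a bound from a dim probe set. Slc43a3, a carrier of purine nucleobases, had 5.95 in LPS-treated and in untreated PDL2-negative cells.

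No Slc38 member was higher after LPS and 2 of 7 were lower. Slc38a2, which is known to be induced when cells lack amino acids, had 9.36 in LPS-treated cells and 10.80 in untreated PDL2-negative cells, a 2.71-fold lower signal. A second probe set gave -0.43, so the size of this difference is uncertain. Slc38a9, a lysosomal protein that signals arginine to mTORC1, had 7.08 in LPS-treated and 8.24 in untreated PDL2-negative cells and was 2.23-fold lower, with 7.83 in PDL2-positive cells. The 6 of its probe sets that could be compared were all lower, by log2 differences from -1.87 to -0.15, and with all probe sets averaged the difference was -0.85, short of 2-fold. Just short of the 2-fold line were Slc38a10 at -0.94, whose 7 probe sets ran from -1.21 to 0.22, and Slc38a1, a glutamine carrier, at -0.91. The second probe set of Slc38a1 was past the line, at -1.89. Slc38a6 and the lysosomal glutamine carrier Slc38a7 differed by -0.12 and -0.01, and Slc38a3 by 0.23.

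In the Slc6 family, 1 of 9 members compared was lower after LPS and 0 were higher. Slc6a13, a carrier of gamma-aminobutyric acid and taurine, was at the floor in LPS-treated cells (5.43), against 6.93 in untreated PDL2-negative cells, and at least 2.56-fold lower. Outside the 2-fold line were Slc6a4, the serotonin transporter (0.87), Slc6a8, the creatine transporter (0.85), and Slc6a6, the taurine transporter (-0.81). The probe sets of Slc6a8 and Slc6a6 differed in sign, from -0.29 to 0.85 and from -0.81 to 0.24.

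**Figure D1:**
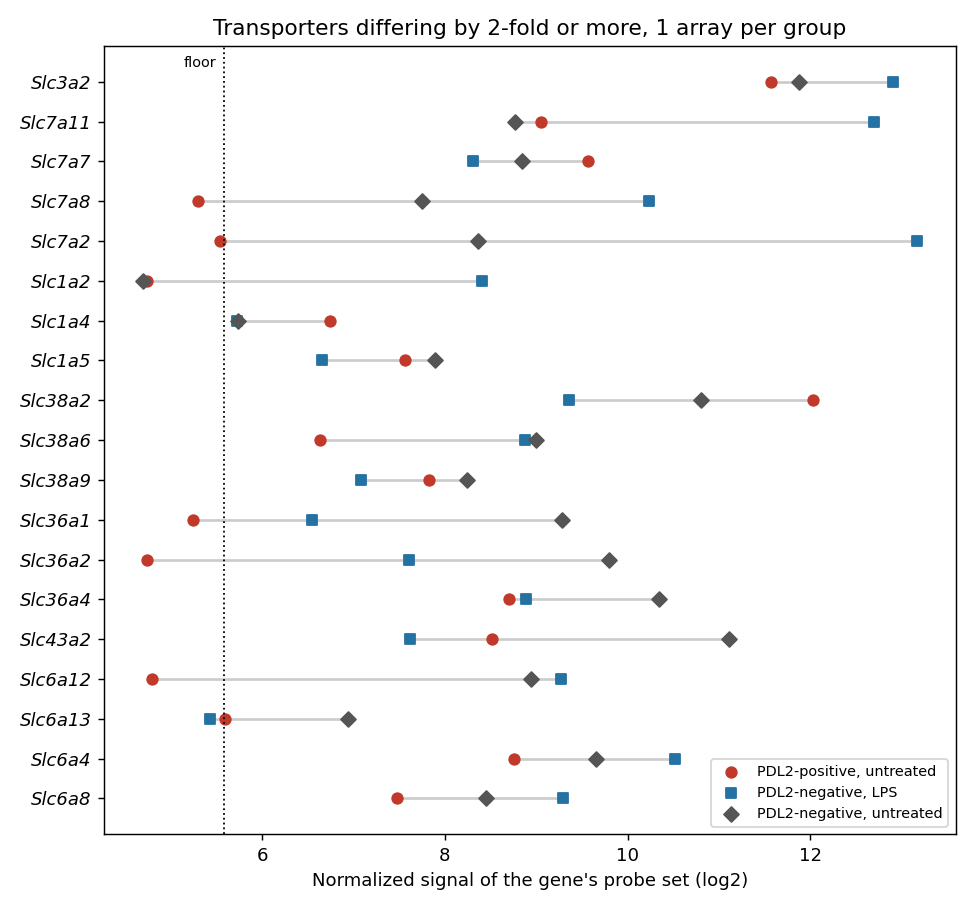
Normalized log2 signal of the 19 transporters that differed by 2-fold or more in any comparison, with 1 point per array (circles, PDL2-positive untreated; squares, PDL2-negative with LPS; diamonds, PDL2-negative untreated) and a dotted line at the floor of 5.58. Slc7a2, Slc7a11, Slc7a8 and Slc1a2 lie farthest right on the LPS array, while Slc36a1, Slc36a2, Slc36a4 and Slc43a2 lie farthest right on the untreated PDL2-negative array.

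The second comparison concerns untreated PDL2-positive against untreated PDL2-negative cells. Here most members that differed were lower in PDL2-positive cells: 3 of 4 Slc36 genes, Slc43a2, Slc38a6, Slc7a2, Slc7a8, Slc6a12 and Slc6a13. Higher were the neutral amino acid transporters Slc38a2 and Slc1a4. Of 34 members compared, 2 (5.88%) were higher by 2-fold or more, against 10.1% of all genes compared, and 9 (26.5%) were lower, against 13% of all genes. Of the 9, 5 are bounds because the PDL2-positive signal was at the floor. Among members above the floor on both arrays 4 of 28 were lower, against 11.8% of all genes, which is close to the background. The median difference of the members was -0.32, against 0.01 over 10926 genes.

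The 3 Slc36 genes named above were also lower here. Slc36a2 had 4.74 in PDL2-positive and 9.79 in PDL2-negative cells and was at least 18.6-fold lower. Slc36a1 had 5.24 in PDL2-positive and 9.28 in PDL2-negative cells and was at least 13-fold lower. Slc36a4, at 8.71 in PDL2-positive and 10.35 in PDL2-negative cells, was 3.12-fold lower. Slc36a1 and Slc36a2 were below the floor in PDL2-positive cells, whereas Slc36a4 remained well above it.

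Slc6a12, the carrier of betaine and gamma-aminobutyric acid, had 4.79 in PDL2-positive cells, against 8.94 in untreated and 9.28 in LPS-treated PDL2-negative cells. It was at least 10.3-fold lower in PDL2-positive than in untreated PDL2-negative cells. Slc38a6, a less studied member of its family, had 6.63 in PDL2-positive cells, against 9.0 in untreated and 8.88 in LPS-treated PDL2-negative cells, and was 5.18-fold lower. The second probe set of Slc38a6 was below the floor on every array, so its difference rests on the brightest alone. For both genes the PDL2-positive array stood apart and the PDL2-negative arrays, with and without LPS, were close together. Slc43a2 had 8.51 in PDL2-positive and 11.11 in PDL2-negative cells and was 6.06-fold lower, with probe set differences from -2.60 to -0.74. Slc6a13 was 2.54-fold lower, at 5.59 in PDL2-positive and 6.93 in PDL2-negative cells, and its PDL2-positive signal lay just above the floor.

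Slc7a2 was at least 6.89-fold lower and Slc7a8 at least 4.50-fold lower in PDL2-positive than in untreated PDL2-negative cells. Other probe sets of Slc7a2 gave bounds of -1.01 and -0.32 on the log2 scale, with untreated PDL2-negative signals of 6.59 and 5.90, nearer to the floor. With all probe sets averaged the Slc7a2 difference was -0.67, and a floor raised to the 75th percentile gave -0.56. Slc7a11, Slc3a2, Slc7a5 and Slc7a1 did not differ by 2-fold, at 0.29, -0.31, -0.54 and 0.58. A second probe set gave 0.92 for Slc7a11 and 1.00, on the 2-fold line, for Slc7a1. Slc7a7 and Slc7a6 had positive differences of 0.72 and 0.65. Among heteromeric transporters, then, only Slc7a8 passed the 2-fold line in this comparison.

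Slc38a2 was 2.34-fold higher in PDL2-positive cells, with 12.03 in PDL2-positive and 10.80 in PDL2-negative cells. A second probe set gave a larger log2 difference of 1.85, and the third, close to the floor, gave 0.12. Slc1a4, a carrier of serine, alanine and cysteine, had 6.75 in PDL2-positive cells, against 5.74 in untreated and 5.72 in LPS-treated PDL2-negative cells. Its log2 difference was 1.01, barely inside the 2-fold line, and its other 2 probe sets gave bounds of 0.84 and 1.11. Just outside the line were Slc6a8 (-0.97), Slc6a4 (-0.89) and Slc38a7 (-0.82). Second probe sets of Slc6a8 and of Slc38a1 (-0.54 with its first) were past it, at -1.17 and -1.01.

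Markers of DCs and of other cells differed along with this comparison. Of the 10 DC markers 5 were higher in PDL2-positive cells (Flt3, Zbtb46, Dpp4, Irf4 and Irf8) and 1, Itgax, was lower, and after LPS none passed 2-fold. Their summed linear signal was 76804 in PDL2-positive, 67584 in LPS-treated and 69924 in untreated PDL2-negative cells. Such a sum adds probe sets of unequal brightness and mostly follows the brightest. In the DC list these were H2-Aa, Cd74 and H2-Ab1, and Cd74 was 14.33 on every array. All 11 macrophage markers measured were lower by 2-fold or more in PDL2-positive cells. Their summed linear signal was 9885 in PDL2-positive and 101285 in untreated PDL2-negative cells, and Mrc1 was at the floor in PDL2-positive cells. Of 6 monocyte markers 5 were lower, with summed signals of 15534 in PDL2-positive and 23279 in untreated PDL2-negative cells. The monocyte sum was mostly S100a4, at 13.85 and 14.01, the marker that did not pass 2-fold (-0.15). Itgam, Vcan and F13a1 had log2 differences of -4.61, -3.41 and -3.35. After LPS 1 macrophage marker was higher and 3 were lower, and 3 monocyte markers were lower, with sums of 78452 and 16885 for these lists in LPS-treated cells. Of the neutrophil list, 6 of 10 neutrophil and granulocyte precursor markers were lower after LPS, with sums of 9443 in LPS-treated and 19762 in untreated PDL2-negative cells. The neutrophil sum was 18867 in PDL2-positive cells. Between the untreated groups 1 of these 10 markers passed 2-fold, Csf3r, lower in PDL2-positive cells at -2.63 on the log2 scale. Of the 10 mast cell, basophil and eosinophil markers 5 were at the floor on all arrays (Mcpt4, Fcer1a, Epx, Ms4a2 and Cma1). Of the 5 compared between the untreated groups, only Kit passed 2-fold, higher by 3.51 on the log2 scale in PDL2-positive cells. Gata2 (0.51), Mcpt8 (0.30), Cpa3 (0.24) and Prg2 (-0.09) did not. Kit was also the brightest of the list in PDL2-positive cells, at 9.78, against 6.26 in untreated PDL2-negative cells. The sums of that list were 1648 in PDL2-positive, 801 in LPS-treated and 735 in untreated PDL2-negative cells. Of 6 lymphocyte and NK cell markers all but Cd3e were at the floor throughout. In bulk samples such as these, fewer cells of a type and less RNA per cell cannot be told apart. The part of these cells in the transporter differences was not tested.

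**Figure D2:**
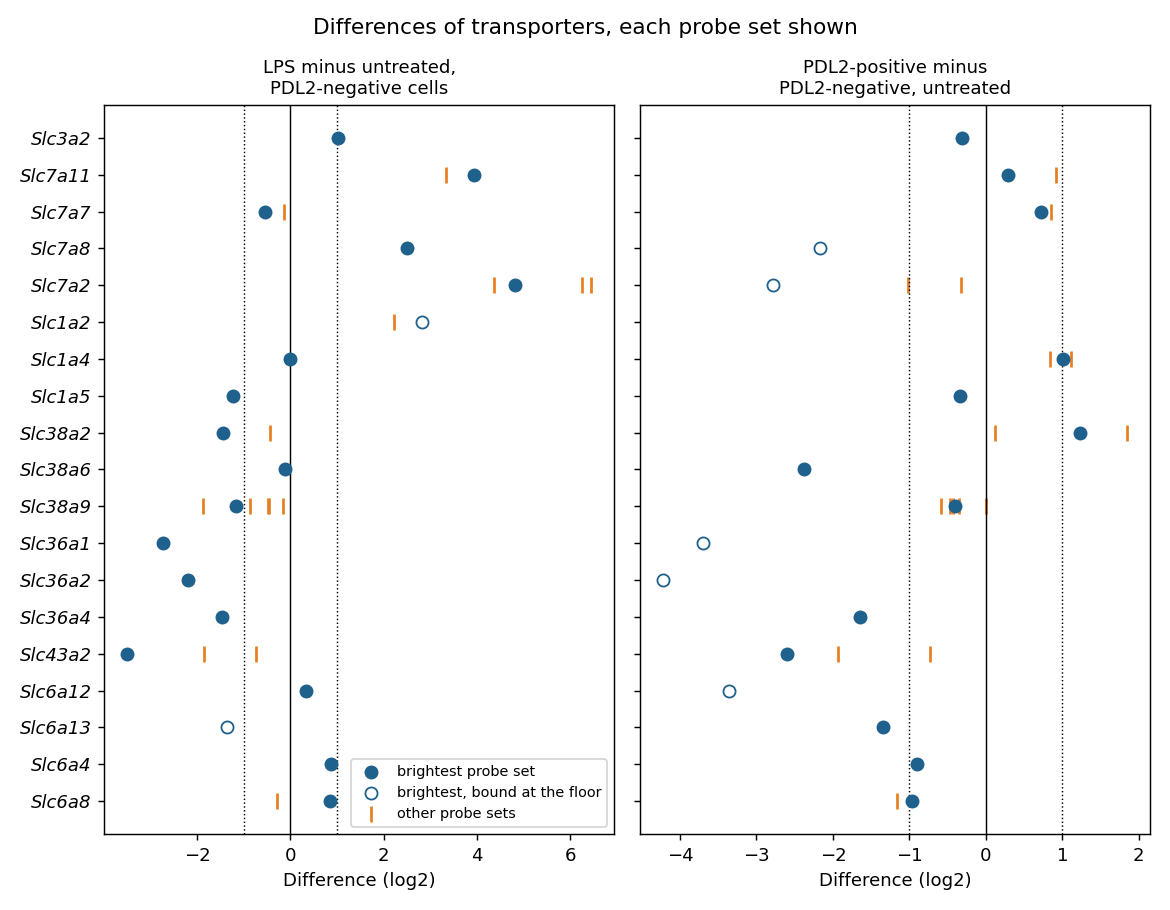
Log2 differences of the same 19 transporters for LPS minus untreated in PDL2-negative cells (left) and PDL2-positive minus PDL2-negative untreated cells (right). Circles are the brightest probe set (open where the difference is a bound at the floor), orange ticks the gene's other probe sets that could be compared, and dotted lines 2-fold; Slc7a2 has all 4 probe sets between 4.36 and 6.45 on the left.

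The third comparison sets PDL2-positive untreated cells against LPS-treated PDL2-negative cells. It uses the same 3 arrays and adds no independent evidence to the others. Of 37 members compared, 3 (8.11%) were higher, against 15.6% of all genes compared, and 10 (27.0%) were lower, against 12.6%. Of the 10, 5 are bounds because the PDL2-positive signal was at the floor. Among members above the floor on both arrays 5 of 27 were lower, against 11.7% of all genes. The count of higher members depended on the normalization: it was 6 of 36 with deposited values, against 17.4% of all genes, and 6 of 37 with median centring, against 16.9%. Slc7a2 was at least 193-fold, Slc7a8 at least 25.3-fold, Slc6a12 at least 13-fold and Slc7a11 12.5-fold lower in PDL2-positive cells. The second probe set of Slc7a11 gave a smaller log2 difference of -2.40. The 4 probe sets of Slc7a2 gave bounds from -7.59 to -4.36. Slc38a2 was 6.35-fold higher, with 12.03 in PDL2-positive and 9.36 in LPS-treated PDL2-negative cells. Its other probe sets gave log2 differences of 2.28 and, close to the floor, at least 0.12. Slc7a7 was 2.39-fold (log2 difference 0.998 with its second probe set) and Slc1a4 2.04-fold higher. Other probe sets of Slc1a4 gave bounds of 1.11 and 0.84.

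Some members passed 2-fold here only because their signals lay on either side of the untreated PDL2-negative level. Slc6a8 had 7.48 in PDL2-positive, 9.30 in LPS-treated and 8.45 in untreated PDL2-negative cells. Slc6a4 had 8.76 in PDL2-positive, 10.53 in LPS-treated and 9.65 in untreated PDL2-negative cells. For both, the PDL2-positive signal was the lowest of the 3 and the LPS signal the highest. The second probe set of Slc6a8 had 7.62 in PDL2-positive, 8.49 in LPS-treated and 8.79 in untreated PDL2-negative cells, so there the LPS signal was not the highest and the difference, -0.87, was short of 2-fold. Slc36a2 was at least 4.08-fold, Slc38a6 4.77-fold, Slc3a2 2.53-fold and Slc1a2 at least 7.10-fold lower in PDL2-positive than in LPS-treated cells.

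The counts also depend on where the line is drawn. At 1.5-fold, 8 members were higher and 11 lower after LPS, against 15.1% and 24.6% of all genes. Between PDL2-positive and PDL2-negative untreated cells, 4 were higher and 12 lower (all genes, 17.7% and 20.4%), and in the third comparison 9 and 13 (all genes, 25.1% and 18.5%). At 3-fold, 4 members were higher and 3 lower after LPS (all genes, 5.28% and 5.87%). In PDL2-positive cells 0 were higher and 8 lower (all genes, 5.37% and 7.35%), and in the third comparison 1 was higher and 9 were lower (all genes, 8.02% and 8.0%).

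**Figure D3:**
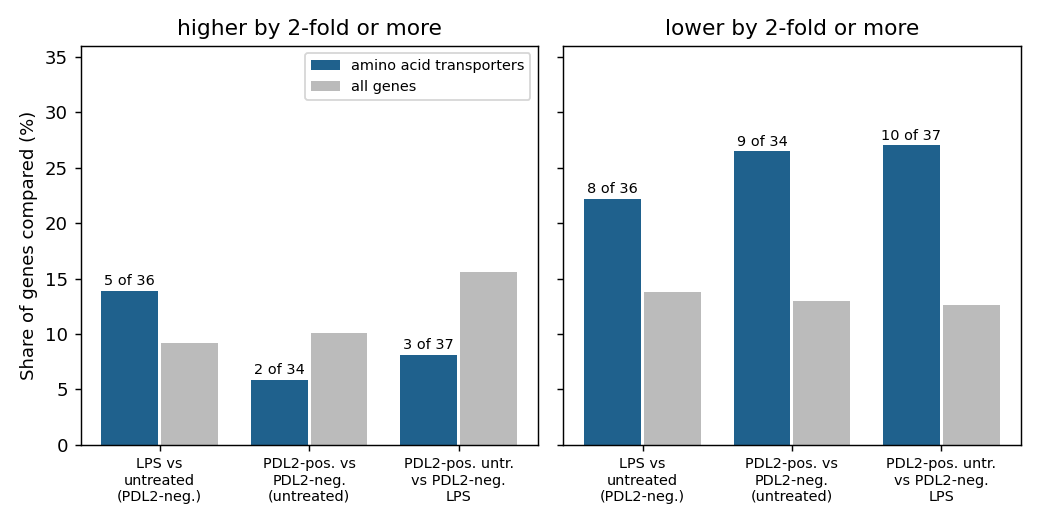
Percentage of genes compared that were higher (left) or lower (right) by 2-fold or more, for the amino acid transporters (blue, with counts) and for all genes (grey), in each of the 3 comparisons. The transporters' share of lower genes was 22.2%, 26.5% and 27.0%, against 13.8%, 13% and 12.6% of all genes.

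Genes of amino acid use and sensing were counted by the same rule, from lists chosen with earlier results of these data known. For the counts that follow, the shares of all genes were 9.17% higher and 13.8% lower after LPS, and between the untreated PDL2 groups 10.1% and 13%. Of 15 genes of cystine use, glutathione synthesis and NRF2 targets, 7 were higher and 1 lower after LPS (median 0.81, against 0.02 over all genes). They included Hmox1, which degrades haem (4.48-fold), Srxn1, which repairs oxidized peroxiredoxins (3.75-fold), the thioredoxin reductase gene Txnrd1 (3.66-fold) and the glutathione synthetase gene Gss (2.86-fold). Gpx4, a glutathione peroxidase that protects lipids, was the lower gene, at -1.24. In PDL2-positive cells 1 of 15 was higher and 3 were lower (median -0.28), with Hmox1 4.76-fold, Nqo1 4.50-fold and Gclm 3.39-fold lower and Gclc 2.11-fold higher.

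Of 18 enzyme genes of arginine, tryptophan, glutamine and branched-chain amino acid metabolism, 4 were higher and 5 lower after LPS (median -0.23). Nos2, the inducible nitric oxide synthase gene, had 11.10 in LPS-treated cells and 5.42 in untreated PDL2-negative cells, so it was at least 46.0-fold higher, and it was at the floor in PDL2-positive cells too (5.37). Ido1, which breaks down tryptophan, was 43.2-fold higher, with 11.02 in LPS-treated cells and 5.59, just above the floor, in untreated PDL2-negative cells. Got1, an aspartate aminotransferase gene, was 3.77-fold and Bckdha, of the branched-chain ketoacid dehydrogenase, 3.73-fold lower. In PDL2-positive cells 4 of 15 were higher and 2 lower (median 0.11), with Glul, the glutamine synthetase gene, 3.89-fold, Ido1 2.92-fold and Got1 2.66-fold higher and the kynurenine monooxygenase gene Kmo at least 5.80-fold lower.

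Of 27 genes of amino acid sensing and mTORC1, 0 were higher and 7 lower after LPS (median -0.35). Sesn1, of the sestrin family whose members restrain mTORC1, was 10.1-fold lower, the Rag GTPase gene Rragd at least 3.95-fold, Lamtor4 3.49-fold and Castor2 2.49-fold lower. In PDL2-positive cells 7 were higher and 6 lower (median -0.18). Sesn3 was 19.1-fold and Castor2 18.5-fold higher, and Fnip2 was 8.18-fold and Lamtor4, a subunit of the lysosomal Ragulator complex, 6.81-fold lower. The list holds both activators and inhibitors of mTORC1, so its counts do not measure the activity of the complex.

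Of 20 genes of the integrated stress response and ATF4 targets, 6 were higher and 4 lower after LPS (median 0.29). Nupr1 was 10.9-fold, Ddit4, an inhibitor of mTORC1, 9.03-fold and the double-stranded RNA kinase gene Eif2ak2 7.08-fold higher, while the kinase gene Eif2ak3 was 7.30-fold lower. In PDL2-positive cells 6 were higher and 1 lower (median -0.06), led by Ddit4 (19.6-fold), the mitochondrial folate enzyme gene Mthfd2 (11.5-fold), Ppp1r15a (5.35-fold) and the proline synthesis gene Aldh18a1 (3.22-fold). Atf4 itself had 10.78 in PDL2-positive, 10.77 in LPS-treated and 11.32 in untreated PDL2-negative cells. Of 18 cytosolic aminoacyl-tRNA synthetase genes, which charge tRNAs, 1 was higher and 2 lower after LPS (Wars at 1.09, Nars at -1.30 and Iars at -1.20), while in PDL2-positive cells 0 were higher and 1 was lower (Farsb, 2.92-fold).

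Among 12 further amino acid, peptide and lysosomal carriers compared, 3 were higher and 4 lower after LPS (median -0.74). Slc16a10, a carrier of aromatic amino acids, had 10.19 in LPS-treated cells, 8.06 in untreated PDL2-negative cells and 5.14, below the floor, in PDL2-positive cells. It was 4.36-fold higher after LPS and at least 5.6-fold lower in PDL2-positive cells. The mitochondrial glutamate carrier gene Slc25a22 was 6.26-fold higher after LPS, and the lysosomal sialic acid carrier gene Slc17a5 had a log2 difference of -2.58 and Mfsd12 of -1.48. In PDL2-positive cells 0 of 12 were higher and 5 lower (median -0.96), among them Slc66a1, a lysosomal exporter of cationic amino acids (3.67-fold), the mitochondrial ornithine carrier gene Slc25a15 (2.60-fold) and Slc15a4, a lysosomal carrier of histidine and peptides (2.56-fold).

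**Figure D4:**
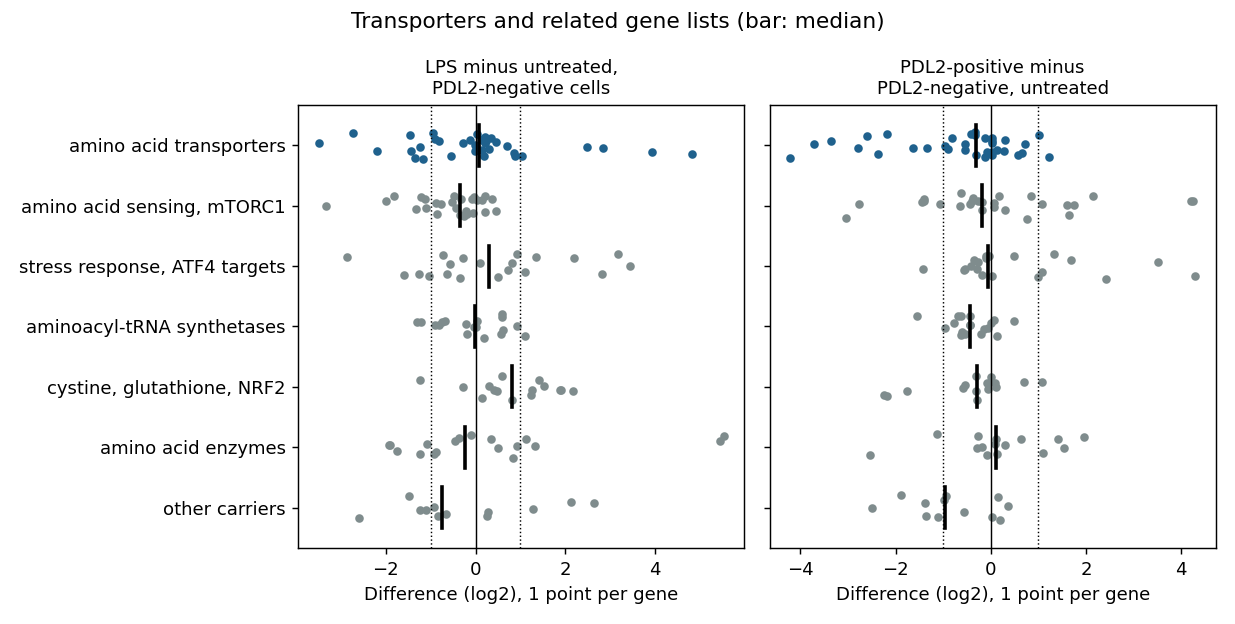
Log2 differences, 1 point per gene (vertical scatter within a list is for display), for the transporters (blue) and the 6 related gene lists (grey), for LPS minus untreated in PDL2-negative cells (left) and PDL2-positive minus PDL2-negative untreated cells (right). Bars are medians and dotted lines 2-fold; the median of the cystine, glutathione and NRF2 list is 0.81 on the left and -0.28 on the right.

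The remaining members above the floor had small or unmeasurable differences. Across the 3 comparisons Slc1a7, Slc6a2, Slc6a9, Slc7a4, Slc36a3, Slc38a3 and Slc43a3 differed by at most 0.45 in size on the log2 scale, and their signals lay between 5.88 and 7.83. Slc7a3, Slc6a7 and Slc6a19 were above the floor on 1 array each, so their differences are bounds, of at least 0.17, 0.02 and 0.29 in size. The brightest-probe-set signal of Slc6a6 was 12.65 in PDL2-positive, 11.98 in LPS-treated and 12.78 in untreated PDL2-negative cells.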

How the data were processed

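Total RNA was hybridized with a biotin label, per the labels' protocols, to 3 arrays. The deposited values are log2 summaries by the authors, 1 per probe set and array. Probe correction, normalization and summary by the authors are not given in the sources used here. Members and gene lists were chosen with earlier results of these data known.

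Without 13 control probe sets, the remaining 38533 were quantile-normalized, since the quartiles of the deposited arrays differed by up to 0.22 and the tolerance was 0.1. The annotation names 1 gene for 33987 probe sets and several for 449, which were not used, and leaves 4110 unnamed. Of the 58 members, 58 kept a matching symbol after an update through RefSeq. Comparing a gene required a signal over the floor on either array of the pair. With 1 array per group no p-value is given. Where a gene had several probe sets, the difference of the brightest minus that of the next had a robust SD of 0.41 after LPS (4212 genes), 0.29 between PDL2 groups (4243 genes) and 0.44 in the third comparison (4121 genes), on the log2 scale. This spread is between probe sets on the same arrays and holds no variation between samples. Values on all arrays are given for members past 2-fold in any comparison and for the brightest member of each family, and other members by range. Of each related list, up to 4 genes with the largest differences are named for the LPS comparison and for the untreated PDL2 groups. The related lists are not described for the third comparison. Atf4, Gpx4 (the only lower gene of its list after LPS) and the cell type markers were named after their values were seen. Alternatives changed the normalization, the floor, the probe set, the fold line and the member rule. The steps were tested on simulated data in which only bright genes were changed, each by well over 2-fold. Recovery of changes near the floor or near the 2-fold line was therefore not tested. Python 3.11.15, numpy 2.4.6 and pandas 2.3.3 were used.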

Additional observations from a re-analysis of the deposited data

How the results depend on the processing

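No paired analysis was possible because each group had 1 array. Of 37 member differences past 2-fold, 37 kept their sign under every alternative that could be computed (other normalizations, floors, probe sets and member rules). Part of this was fixed in advance. A raised floor cannot flip a sign, and the member rules and the need for both arrays above the floor leave a difference unchanged or drop it. For a member with a single probe set, averaging changes nothing and no second set exists. Of the 37, 29 stayed past 2-fold. The exceptions under the floor at the 75th percentile and averaged probe sets were Slc1a2 after LPS (0.60 and 0.68), Slc1a5 (-0.09 and -0.70), Slc38a9 (-0.43 and -0.85) and Slc7a2 between PDL2 groups (-0.56 and -0.67). Slc1a2 in the third comparison gave -0.60 and -0.68. With the second-brightest probe set Slc38a2 after LPS was -0.43, and -0.62 with averaged sets, and in the third comparison Slc6a8 was -0.87 and Slc7a7, at 0.998, fell short of the line. In the counts that follow, the share of all genes under the same setting is in brackets. After LPS, members lower numbered 5 of 23 with the higher floor (13.6%) and 5 of 16 with the second-brightest probe set (11.8%). At 3-fold 3 of 36 were lower (5.87%), against 8 of 36 in the main setting (13.8%). Members higher numbered 8 of 36 at 1.5-fold (15.1%), against 5 of 36 (9.17%). Between PDL2 groups, members higher numbered 1 of 21 with the higher floor (11.6%) and 4 of 34 at 1.5-fold (17.7%). At 3-fold 0 of 34 were higher (5.37%), against 2 of 34 in the main setting (10.1%). Members lower numbered 4 of 16 with the second-brightest probe set (10.7%), against 9 of 34 (13%). With members above the floor on both arrays 4 of 28 were lower (11.8%). The median was 0.011 with the second-brightest probe set, against -0.32. In the third comparison, members higher numbered 6 of 36 with deposited values (17.4%) and 6 of 37 with median centring (16.9%). At 1.5-fold 9 of 37 were higher (25.1%) and at 3-fold 1 of 37 (8.02%), against 3 of 37 (15.6%). Members lower numbered 3 of 17 with the second-brightest probe set (13.1%), against 10 of 37 (12.6%). With members above the floor on both arrays 5 of 27 were lower (11.7%). Fewer members enter with the higher floor, both arrays or a second probe set, which lowers counts by construction. With deposited values, 8.32% of all genes were higher and 16.4% lower after LPS, and their median was -0.09, against 0.02. Dim signals limit the rest: 21 members gave no difference, and folds of members at the floor are bounds.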
